A study of Mus musculus with 8 samples.

Results

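The 48 genes described here encode the proteins that copy DNA and prepare a cell for S phase. They were taken from a list of replication genes that was chosen with earlier results of these data known. Their expression was read on the arrays by every non-control probe whose systematic name is a RefSeq transcript of a listed gene. All 48 genes had such a probe, with 56 probes among them, of 55681 non-control probes on the array. A probe was tested when at least 4 of the 8 arrays gave a Cy5 signal well above background and each group had at least 3 usable values, and 54 of the 56 probes and 47 of the 48 genes met this. Ccne2, one of the cyclin E genes, was not well above background on any array and has no tested value.

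The series compared ureteric bud cells of newborn C57BL/6 mice (postnatal day 0) in 2 groups of 4 samples. In the KO samples, labelled DOT1-null, Dot1 had been deleted conditionally from Hoxb7-positive cells, and the WT samples were labelled wildtype controls. In both groups cells carrying GFP were collected from kidneys by flow sorting, and each sample was hybridised in Cy5 on its own 2-colour array against the RNA of WT replicate 3 in Cy3. The values below are log2 ratios of a sample to that common RNA, so WT 3 is a hybridisation of 1 RNA with itself. The allele that drives the deletion, the number of animals behind a sample and the share of cells that lost Dot1 are not given in the sources used here. A sorted population can read lower for a gene because fewer of its cells are in S phase or because each cell holds less of the RNA, and these cannot be told apart here.

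A cell replicates its genome once per cycle. In G1 the origin recognition complex, with Cdc6 and Cdt1, loads the Mcm2 to Mcm7 ring onto DNA, and geminin blocks a second loading. At the onset of S phase Cdc45 and the GINS complex turn the ring into the active helicase, DNA polymerase alpha with primase starts each strand, and polymerases epsilon and delta extend it on the sliding clamp PCNA. Most of these genes are transcribed under the control of E2F factors, whose activity cyclin E and its kinase release. The ureteric bud of the newborn kidney still branches, and its tips are known as a zone of dividing cells.

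In Cy5 the 4 KO arrays were brighter than the 4 WT arrays. Median Cy3 signals were 31, 33, 102 and 29 on KO 1 to KO 4, against 30.5, 35, 32 and 30.5 on WT 1 to WT 4. The median Cy5 signal of non-control spots was 122, 137, 636 and 126 on KO 1 to KO 4, against 107.5, 95, 99 and 93.5 on WT 1 to WT 4, and KO 3 had 7665 flagged spots, where the other arrays had 175 to 216. Per the file headers, the KO arrays shared 1 slide row and the WT arrays another, so position on the slide cannot be told apart from genotype. Dot1l, the targeted gene, had log2 ratios of 0.35, 0.03, -0.04 and 0.30 on KO 1 to KO 4, against 0.03, -0.05, -0.11 and 0.07 on WT 1 to WT 4, a log2 difference of 0.18 ± 0.11 (SE), and it did not pass the test (limma adjusted p = 0.342). Whether its probe lies in the deleted part is not given, so this value checks no label.

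The upstream sequences of 6 members are shown because E2F sites are the element these genes are known to share. In the RefSeq promoter table (build GRCm38.p6, 250 bases before to 50 after each start) 40 of the 48 members were found by symbol. The motif TTTNNCGC, which includes the E2F sites TTTCCCGC and TTTGGCGC, was searched on both strands, and 18 of these 40 members (45.0%) held at least 1 match, against 1602 of 27025 genes in the table (5.93%). TTTCCCGC alone was in 8 members (20.0%, against 1.24% of all genes) and TTTGGCGC in 7 (17.5%, against 0.585%). CCAAT, the NF-Y box, was in 25 of the 40 (62.5%, against 41.1%), and TTTGAA, the cell cycle homology region of mitotic genes, in 7 (17.5%, against 20.2%). The 250 bases before the start site follow, 5′ to 3′, with each TTTNNCGC match on either strand in capitals. The first 5 are the members with a match in this window in which the KO arrays stood clear of the WT arrays, and Mcm6 is the member with the most matches.
Mcm5: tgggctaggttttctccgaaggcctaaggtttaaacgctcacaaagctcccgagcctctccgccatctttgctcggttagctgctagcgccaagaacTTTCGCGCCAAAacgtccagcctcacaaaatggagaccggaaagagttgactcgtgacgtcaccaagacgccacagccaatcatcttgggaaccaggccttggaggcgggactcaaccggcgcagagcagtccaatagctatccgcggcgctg
Mcm7: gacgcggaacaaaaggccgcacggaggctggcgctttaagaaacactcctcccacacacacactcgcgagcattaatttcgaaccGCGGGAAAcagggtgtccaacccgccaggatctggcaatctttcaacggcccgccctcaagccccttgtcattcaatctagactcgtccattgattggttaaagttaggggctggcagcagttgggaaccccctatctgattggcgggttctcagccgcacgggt
Gins3: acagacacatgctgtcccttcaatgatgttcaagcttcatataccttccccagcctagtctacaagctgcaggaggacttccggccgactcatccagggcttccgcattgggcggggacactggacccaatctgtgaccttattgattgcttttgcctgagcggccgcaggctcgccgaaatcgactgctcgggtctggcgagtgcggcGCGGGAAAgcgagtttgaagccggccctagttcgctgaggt
Cdc6: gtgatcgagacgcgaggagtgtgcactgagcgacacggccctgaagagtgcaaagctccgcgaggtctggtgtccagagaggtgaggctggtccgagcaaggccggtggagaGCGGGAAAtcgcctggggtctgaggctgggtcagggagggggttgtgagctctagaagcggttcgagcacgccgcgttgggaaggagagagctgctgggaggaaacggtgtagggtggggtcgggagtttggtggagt
Rfc3: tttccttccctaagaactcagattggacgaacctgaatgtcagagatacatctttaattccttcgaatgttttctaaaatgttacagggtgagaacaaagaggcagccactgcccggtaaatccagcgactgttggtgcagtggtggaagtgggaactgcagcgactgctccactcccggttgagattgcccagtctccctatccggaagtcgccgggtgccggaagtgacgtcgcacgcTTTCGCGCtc
Mcm6: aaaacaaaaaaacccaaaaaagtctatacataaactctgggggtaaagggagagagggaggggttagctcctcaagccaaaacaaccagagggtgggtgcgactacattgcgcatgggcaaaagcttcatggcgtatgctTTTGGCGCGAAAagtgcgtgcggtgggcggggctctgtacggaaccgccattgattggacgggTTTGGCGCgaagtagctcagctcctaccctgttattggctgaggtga
These lie at chr8:75109259-75109508, plus strand for Mcm5, chr5:138171884-138172133, minus strand for Mcm7, chr8:95633309-95633558, plus strand for Gins3, chr11:98907901-98908150, plus strand for Cdc6, chr5:151651209-151651458, minus strand for Rfc3 and chr1:128359706-128359955, minus strand for Mcm6. In Mcm5 the capitals are 2 overlapping matches that begin 153 and 149 bases before the start, and in Mcm6 matches begin 110, 106 and 47 bases before it. Within the full promoter windows the motif was in 7 of the 18 members with a promoter whose arrays did not overlap and in 11 of the other 22. Mcm6, with 3 matches, had the smallest difference of the 11 helicase genes, and Mcm5, with 2, the largest. A match is a description of these letters and not a site.

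Most replication genes read lower in KO than in WT, by small amounts, and none passed the test. Of 47 tested members 42 had a negative log2 difference (KO minus WT), with a median of -0.30, where 54.1% of all 23343 genes or unnamed transcripts tested were below 0 with a median of -0.02. The differences ran from -0.63 for Mcm5 to 0.21 for Slbp. With Benjamini-Hochberg adjustment over all 23343, 0 members passed 0.05 in limma in either direction, where 2 genes (0.00857%) passed lower in KO and none higher. The lowest adjusted p of a member was 0.106, for Mcm2. At an unadjusted p under 0.05 there were 23 members lower in KO and 0 higher, against 13.6% and 10.4% of all genes.

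Separation of the arrays was more frequent among the members than over the array. Of the 44 members with values on all 8 arrays, 20 had every KO array below every WT array (45.5%), against 7.64% of the 21215 genes with complete values. No member had every KO array above every WT array, against 3.85% of those genes. Members share libraries and are expressed together in cycling cells, so 20 members are not 20 independent observations. The members were also chosen with earlier results of these data known, so these shares are a description and not a test.

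**Figure D1:**
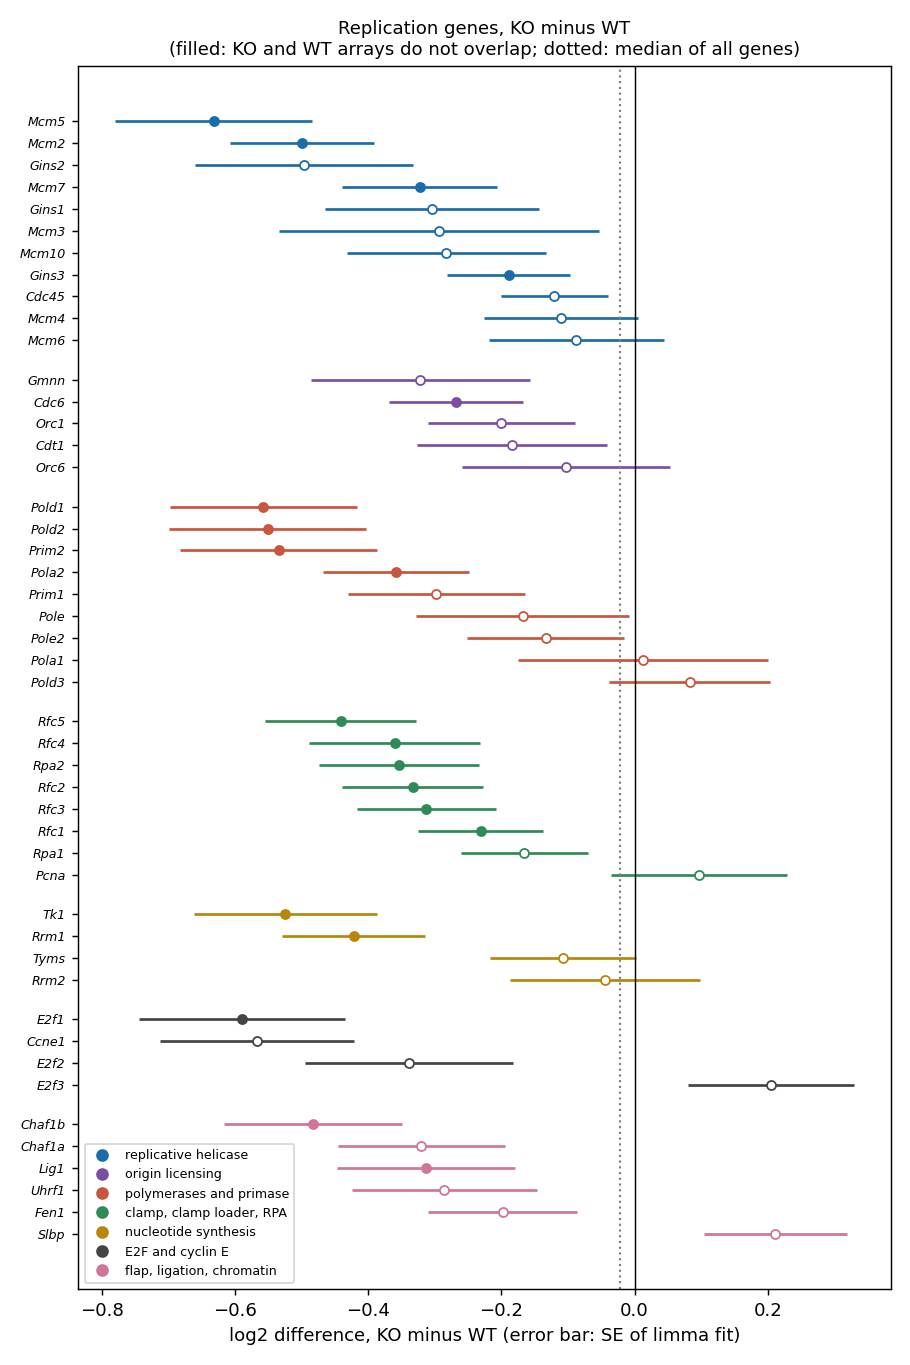
Log2 difference KO minus WT for the 47 tested members by role, with the SE of the limma fit as error bar; filled points are members with values on all 8 arrays in which the KO arrays stood clear of the WT arrays, and the dotted line is the median of all genes tested (-0.02). Of the 47 points 42 lie left of 0, and Slbp, E2f3, Pcna, Pold3 and Pola1 lie right of it.

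The replicative helicase showed one direction in all of its members, with none past the test. All 11 genes, Mcm2 to Mcm7, Mcm10, Cdc45 and the GINS subunits Gins1 to Gins3, had a negative log2 difference, with a median of -0.29. Mcm5 (NM_008566), a subunit of the ring, had log2 ratios of -0.06, 0.27, -0.33 and -0.25 on KO 1 to KO 4, against 0.42, 0.79, 0.36 and 0.60 on WT 1 to WT 4. Every KO array was below every WT array, and the log2 difference was -0.63 ± 0.15 (SE), or 1.55-fold lower in KO (limma adjusted p = 0.108). Mcm2 (NM_008564), another ring subunit, had log2 ratios of -0.04, 0.10, -0.22 and -0.25 on KO 1 to KO 4, against 0.34, 0.58, 0.31 and 0.34 on WT 1 to WT 4, a difference of -0.50 ± 0.11 (SE) (limma adjusted p = 0.106). For both genes KO 2 was the highest KO array and WT 2 the highest WT array. Mcm7, also of the ring, had 0.14, -0.07, -0.12 and -0.26 on KO 1 to KO 4, against 0.16, 0.49, 0.16 and 0.17 on WT 1 to WT 4. Gins3, of the GINS complex, had 0.10, 0.13, -0.06 and -0.16 on KO 1 to KO 4, against 0.21, 0.29, 0.14 and 0.14 on WT 1 to WT 4. Both separated narrowly, with 1 KO array just below the lowest WT array, KO 1 for Mcm7 and KO 2 for Gins3. Gins2 had -0.01, 0.12 and -0.50 on KO 1, KO 2 and KO 4, against 0.31, 0.58, 0.18 and 0.41 on WT 1 to WT 4; its spot on KO 3 was flagged and left out, so the difference of -0.50 ± 0.16 (SE) rests on 3 KO arrays.

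Other ring subunits overlapped between the groups. Mcm6, the brightest member by probe signal, had -0.37, -0.58, -0.32 and -0.59 on KO 1 to KO 4, against -0.34, -0.06, -0.63 and -0.50 on WT 1 to WT 4, a difference of -0.09 ± 0.13 (SE). Its WT 2 value stood above all other arrays, and without WT 2 its difference was 0.02. Mcm3 had 0.16, 0.36, -0.51 and -0.23 on KO 1 to KO 4, against 0.32, 0.65, -0.36 and 0.34 on WT 1 to WT 4, with a wide spread within each group. Mcm4, Mcm10, Cdc45 and Gins1, which encode a ring subunit, a factor of helicase activation and parts of the active helicase, had differences of -0.11, -0.28, -0.12 and -0.30.

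Origin licensing genes had the smallest median difference of the 7 role groups, -0.20 over 5 genes, all below 0 and none past the test. Cdc6, the loader of the Mcm ring, was the 1 member of this group whose arrays separated, with log2 ratios of -0.60, -0.47, -0.45 and -0.57 on KO 1 to KO 4, against -0.34, -0.01, -0.38 and -0.29 on WT 1 to WT 4 and a difference of -0.27 ± 0.10 (SE) (limma adjusted p = 0.157). A second probe of Cdc6 read -0.26, -0.24, -0.26 and -0.56 on KO 1 to KO 4, against -0.08, -0.0006, -0.0004 and 0.02 on WT 1 to WT 4, a difference of -0.31 ± 0.09 (SE), and separated as well. Both probes are among the dimmest of the members. Geminin (Gmnn), the inhibitor of relicensing, had 0.12, -0.49, -0.72 and -0.26 on KO 1 to KO 4, against -0.13, 0.13, 0.01 and -0.07 on WT 1 to WT 4. Its 4 KO arrays spanned most of the range, from above every WT array but one to below all of them. Cdt1, the licensing partner of Cdc6, had -0.48, -0.79, -0.51 and -0.78 on KO 1 to KO 4, against -0.68, -0.08, -0.51 and -0.56 on WT 1 to WT 4, a difference of -0.18 ± 0.14 (SE). Orc6, a subunit of the origin recognition complex, had 0.12, -0.63, -0.53 and -0.29 on KO 1 to KO 4, against -0.26, -0.09, -0.34 and -0.22 on WT 1 to WT 4, a difference of -0.10 ± 0.16 (SE), with KO 1 the highest of the 8 arrays. Orc1, of the same complex, had a difference of -0.20, and these 3 genes overlapped. The share of the 5 licensing genes that separated was 20%, against 7.64% of all genes.

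Polymerase genes differed by subunit in whether the arrays separated, though no difference between subunits was tested. Of 9 genes 7 had a negative difference, with a median of -0.30, and none passed the test. Of the 9, 4 separated between the groups (44.4%, against 7.64% of all genes). Pold1 (NM_011131), the catalytic subunit of polymerase delta, had log2 ratios of -0.09, 0.12, -0.37 and -0.34 on KO 1 to KO 4, against 0.31, 0.68, 0.20 and 0.36 on WT 1 to WT 4. All KO arrays lay below all WT arrays, with a log2 difference of -0.56 ± 0.14 (SE) or 1.47-fold lower in KO (limma adjusted p = 0.112). Pold2, the second subunit of the same enzyme, had 0.28, 0.51, -0.21 and 0.11 on KO 1 to KO 4, against 0.63, 0.90, 0.71 and 0.65 on WT 1 to WT 4, a difference of -0.55 ± 0.15 (SE) (limma adjusted p = 0.112). Pold3, an accessory subunit, did not separate: its ratios were -0.07, -0.50, -0.29 and -0.28 on KO 1 to KO 4, against -0.55, -0.16, -0.46 and -0.30 on WT 1 to WT 4, with overlapping groups and a difference of 0.08 ± 0.12 (SE).

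The polymerase alpha and primase complex, which lays down the primers, was also uneven. Prim2, the large primase subunit, had -0.26, -0.33, -0.81 and -0.37 on KO 1 to KO 4, against -0.03, 0.40, 0.05 and -0.05 on WT 1 to WT 4, a difference of -0.53 ± 0.15 (SE) (limma adjusted p = 0.114), where no KO array reached the lowest WT array. Pola2, the regulatory subunit of polymerase alpha, had 0.16, -0.12, 0.17 and -0.24 on KO 1 to KO 4, against 0.29, 0.41, 0.30 and 0.40 on WT 1 to WT 4, a difference of -0.36 ± 0.11 (SE), and here too the groups stood apart. Prim1, the catalytic primase subunit, had -0.53, -0.84, -0.91 and -0.71 on KO 1 to KO 4, against -0.58, -0.11, -0.52 and -0.59 on WT 1 to WT 4, a difference of -0.30 ± 0.13 (SE), with KO 1 above WT 1 and WT 4. Pola1, the catalytic subunit of polymerase alpha, had 0.22, -0.21, -0.58 and 0.07 on KO 1 to KO 4, against -0.49, 0.14, -0.08 and -0.13 on WT 1 to WT 4 and a difference of 0.01 ± 0.19 (SE). The spread of Pola1 within each group was far wider than this difference, and its sign turned under other processing, to -0.58 with Cy5 alone. Pole and Pole2, of the leading-strand polymerase epsilon, had -0.17 and -0.13, with overlapping arrays.

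The clamp loader separated in every subunit, though not past the test, and the clamp did not. Rfc1 to Rfc5, the 5 subunits of replication factor C, had differences of -0.23, -0.33, -0.31, -0.36 and -0.44, and in each of them all KO arrays lay below all WT arrays. Rfc5 had the largest, with log2 ratios of -0.74, -0.59, -0.93 and -0.97 on KO 1 to KO 4, against -0.51, -0.18, -0.41 and -0.36 on WT 1 to WT 4 (difference -0.44 ± 0.11 (SE); limma adjusted p = 0.112). Rfc1 had -0.70, -0.66, -0.56 and -0.87 on KO 1 to KO 4, against -0.51, -0.33, -0.54 and -0.49 on WT 1 to WT 4, where KO 3 lay just below WT 3. Rfc2 had -0.08, -0.01, -0.36 and -0.20 on KO 1 to KO 4, against 0.06, 0.33, 0.06 and 0.23 on WT 1 to WT 4. Rfc3 had -0.14, -0.18, -0.55 and -0.32 on KO 1 to KO 4, against -0.0038, -0.02, 0.10 and -0.02 on WT 1 to WT 4. Rfc4 had -0.01, -0.09, -0.54 and -0.12 on KO 1 to KO 4, against 0.14, 0.35, 0.04 and 0.15 on WT 1 to WT 4. In these 3 subunits KO 3 was the lowest array. Pcna, the ring that this complex loads, had -0.07, -0.54, -0.29 and -0.03 on KO 1 to KO 4, against -0.36, -0.10, -0.44 and -0.42 on WT 1 to WT 4 and a difference of 0.10 ± 0.13 (SE). KO 4 and KO 1 were the highest of the 8 arrays and KO 2 the lowest, so the groups overlapped throughout. Rpa2, of the single-strand binding protein RPA, had -0.23, -0.05, -0.56 and -0.20 on KO 1 to KO 4, against -0.01, 0.24, 0.02 and 0.13 on WT 1 to WT 4, a difference of -0.35 ± 0.12 (SE), and separated. Rpa1, of the same complex, had -0.45, -0.63, -0.44 and -0.63 on KO 1 to KO 4, against -0.37, -0.20, -0.48 and -0.44 on WT 1 to WT 4, a difference of -0.17 ± 0.10 (SE), and overlapped. Over the 8 genes of clamp, loader and RPA the median was -0.32, with 7 below 0 and 6 separated (75%, against 7.64% of all genes). No difference between these genes was tested.

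Of 4 nucleotide synthesis genes, Rrm1 and Tk1 separated between the groups and Rrm2 and Tyms did not; none passed the test. Rrm1, the large subunit of ribonucleotide reductase, had log2 ratios of -0.39, -0.32, -0.29 and -0.60 on KO 1 to KO 4, against -0.04, 0.22, -0.14 and 0.05 on WT 1 to WT 4, a difference of -0.42 ± 0.11 (SE) (limma adjusted p = 0.112). Tk1, the S phase thymidine kinase, had 0.02, -0.11, -0.63 and -0.29 on KO 1 to KO 4, against 0.13, 0.37, 0.25 and 0.34 on WT 1 to WT 4, a difference of -0.52 ± 0.14 (SE) (limma adjusted p = 0.112). In both genes WT 2 was the highest array. Rrm2, the subunit whose supply is known to limit the reductase, had -0.32, -0.76, -0.50 and -0.54 on KO 1 to KO 4, against -0.62, -0.31, -0.23 and -0.77 on WT 1 to WT 4 and a difference of -0.04 ± 0.14 (SE); the KO arrays lay within the range of the WT arrays. Tyms, thymidylate synthase, had -0.11, with KO 1 the highest of the 8 arrays. The 4 genes had a median of -0.26, and the share that separated was 50%, against 7.64% of all genes.

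Among the regulators of S phase entry E2f1 had one of the largest differences of the 47 members, without passing the test. E2f1 (NM_007891), an activator of replication genes, had log2 ratios of -0.45, -0.23, -0.78 and -0.78 on KO 1 to KO 4, against -0.17, 0.35, -0.02 and -0.02 on WT 1 to WT 4. No KO array reached the lowest WT array, and the log2 difference was -0.59 ± 0.15 (SE), or 1.5-fold lower in KO (limma adjusted p = 0.112). Ccne1 (cyclin E1) had -0.47, -0.06 and -0.59 on KO 1, KO 2 and KO 4, against 0.16, 0.40, 0.14 and 0.08 on WT 1 to WT 4 at its brighter probe, a difference of -0.57 ± 0.15 (SE) over 3 KO arrays, because the spot on KO 3 was left out. The 4 tested genes of E2F and cyclin E had a median of -0.45 at their brighter probes and of -0.26 with the mean over probes. E2f2, another activator, overlapped at -0.34.

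For Ccne1 and E2f3 the reading depended on the probe. The dimmer probe of Ccne1 read 0.16, -0.33, 0.02 and 0.01 on KO 1 to KO 4, against -0.05, -0.10, -0.27 and -0.13 on WT 1 to WT 4, a difference of 0.10 ± 0.11 (SE), with overlapping groups. E2f3, also an activator, had 0.32, -0.27, -0.09 and 0.12 on KO 1 to KO 4, against -0.15, -0.20, -0.15 and -0.22 on WT 1 to WT 4 at its brighter probe and a difference of 0.20 ± 0.12 (SE). Its dimmer probe read -0.47, -0.05, -0.48 and -0.56 on KO 1 to KO 4, against 0.10, 0.25, 0.17 and 0.19 on WT 1 to WT 4, with all KO arrays below all WT arrays and a difference of -0.57 ± 0.12 (SE) (limma adjusted p over all probes = 0.101). Both probes carry the same transcript accession, and which exons each reads is not given in the files. Of the 7 members with 2 tested probes, 4 were below 0 at both, Slbp was above 0 at both, and these 2 differed in sign. The dimmer probes of Rfc4 and Uhrf1 had larger differences than the brighter ones, -0.56 and -0.57, for Uhrf1 over 3 KO arrays.

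Genes that finish the new strand and rebuild chromatin on it had a median of -0.30, with 5 of 6 below 0 and none past the test. Chaf1b, a subunit of the chromatin assembly factor that deposits new histones at the fork, had log2 ratios of -0.46, -0.42, -0.47 and -0.84 on KO 1 to KO 4, against -0.26, 0.22, -0.03 and -0.17 on WT 1 to WT 4, a difference of -0.48 ± 0.13 (SE) (limma adjusted p = 0.114). It separated at both of its probes. Lig1, the ligase that joins Okazaki fragments, had -0.38, -0.52, -0.42 and -0.70 on KO 1 to KO 4, against -0.34, 0.16, -0.38 and -0.21 on WT 1 to WT 4; KO 1 and the WT 3 array were nearly equal, and the difference was -0.31 ± 0.13 (SE). Chaf1a, the large subunit of the assembly factor, had -0.32, Fen1, the flap nuclease, -0.20, and Uhrf1, which brings maintenance methylation to the fork, -0.29, each with overlapping arrays. Slbp, which binds the stem loop of replication-dependent histone mRNAs, had 0.05, -0.12 and 0.23 on KO 1, KO 2 and KO 4, against -0.16, -0.07, -0.18 and -0.23 on WT 1 to WT 4, with KO 3 left out, and a difference of 0.21 ± 0.11 (SE).

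**Figure D2:**
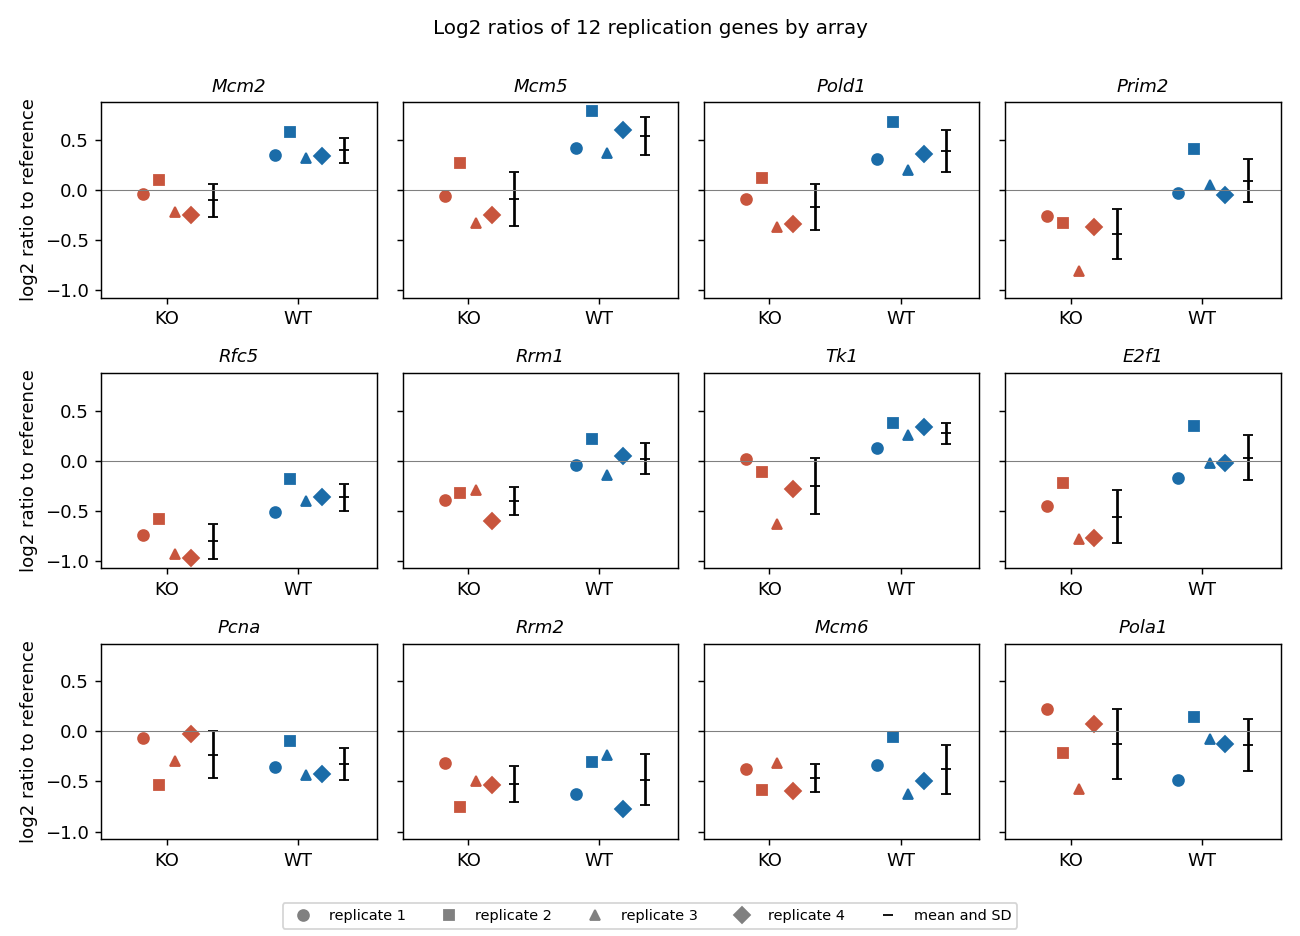
Log2 ratio to the common reference for 12 members, KO left and WT right, 1 symbol per replicate, with mean and SD beside each group. The upper 8 genes have all KO points below all WT points, and Pcna, Rrm2, Mcm6 and Pola1 overlap.

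Taken array by array, the median log2 ratio over the 47 members (44 on KO 3) was -0.07, -0.21, -0.44 and -0.28 on KO 1 to KO 4, against -0.07, 0.22, -0.08 and -0.03 on WT 1 to WT 4. Gins2, Ccne1 and Slbp had no value on KO 3 and are left out of the medians of their role groups there. KO 3 was the lowest array and WT 2 the highest, and KO 1 overlapped WT 1, WT 3 and WT 4. The helicase medians were 0.00314, -0.05, -0.27 and -0.25 on KO 1 to KO 4, against 0.16, 0.39, 0.14 and 0.14 on WT 1 to WT 4, and did not overlap. Polymerase medians were -0.07, -0.21, -0.37 and -0.24 on KO 1 to KO 4, against -0.03, 0.30, -0.05 and -0.05 on WT 1 to WT 4. Nucleotide medians were -0.15, -0.22, -0.39 and -0.41 on KO 1 to KO 4, against 0.04, 0.27, 0.06 and 0.19 on WT 1 to WT 4. Those of E2F and cyclin E were -0.14, -0.24, -0.29 and -0.33 on KO 1 to KO 4, against -0.13, 0.37, 0.06 and 0.03 on WT 1 to WT 4. These 3 role groups did not overlap either, though KO 1 lay close to the lowest WT array for the polymerases (WT 3) and for E2F and cyclin E (WT 1). Medians of the ligation and chromatin genes did not overlap, while licensing medians and those of clamp, loader and RPA overlapped.

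**Figure D3:**
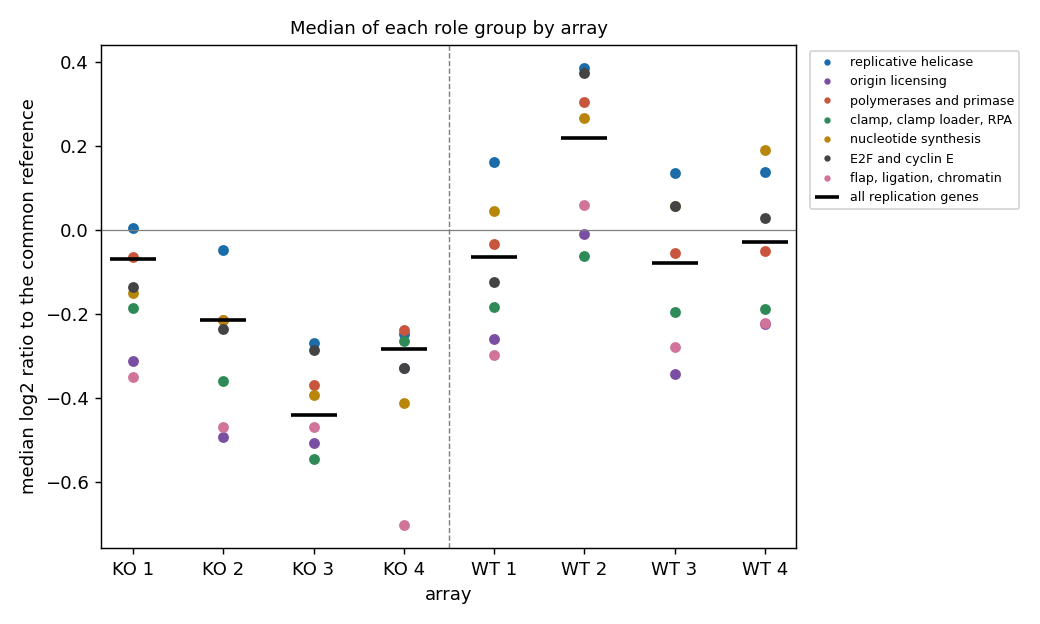
Median log2 ratio of each role group on each array, with the KO arrays left of the dashed line and the WT arrays right of it. Black bars are the median of all 47 members, or of 44 on KO 3. KO 3 is lowest at -0.44 and WT 2 highest at 0.22, and KO 1 (-0.07) lies among WT 1, WT 3 and WT 4.

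WT 2 stood apart from the other WT arrays in these genes. It was the highest of the 4 WT arrays for 41 of 47 members (87.2%), against 22.9% of all genes. Mcm7 on WT 2 was 0.49, where the other WT arrays read 0.16 to 0.17, and Uhrf1 was -0.05, where they read -0.44 to -0.42. Without WT 2 the median difference of the members was -0.19, with 40 of 47 below 0 and 20 lower without overlap, where 9.47% of all genes were, so the median was over 1.5 times smaller.

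KO 2 was the KO array with the lowest share of all genes below the WT arrays, and one of the highest shares of replication genes. There, 37 of 47 members (78.7%) lay below the lowest WT array, where 23.3% of all genes did. The shares were 55.3% against 32.7% on KO 1, 79.5% of 44 against 41.6% on KO 3, and 72.3% against 34.2% on KO 4.

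**Figure D4:**
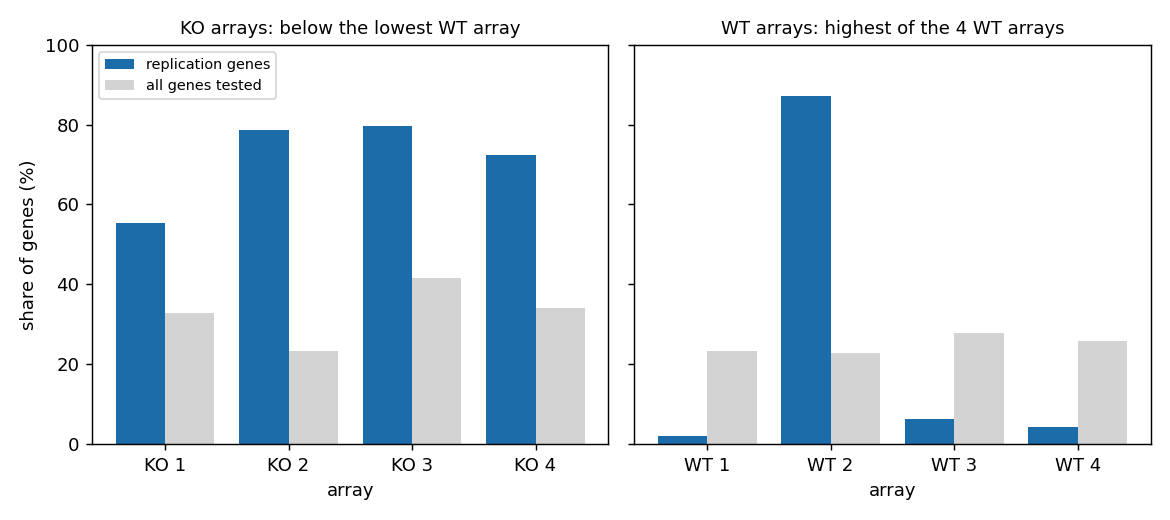
Left, the share of genes on each KO array that lay below the lowest WT array; right, the share whose highest WT value was on each WT array; blue bars are the replication genes and grey bars all genes tested. KO 2 reaches 78.7% against 23.3%, and WT 2 87.2% against 22.9%.

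Leaving out KO 2 changed which tests passed. Without it limma with adjustment over all genes called 15 members lower in KO and 0 higher, where 11.2% and 10.0% of all genes were called. The 15 were Gins2, Mcm2 and Mcm5 of the helicase, Pold1, Pold2 and Prim2 of the polymerases, Rfc2, Rfc5 and Rpa2, Rrm1 and Tk1, Ccne1 and E2f1, and Chaf1a and Chaf1b. Without KO 2 and KO 3, an alternative added with the data in view, 12 were lower (10.1% of all genes) and 1 was higher, E2f3 (13.5%). With array weights, which gave KO 2 a weight of 0.355 and KO 3 of 0.489, 14 members were lower and 0 higher, where 8.37% and 9.08% of all genes were called. Members lower in all 3 fits were Ccne1, Chaf1b, E2f1, Gins2, Mcm2, Mcm5, Pold1, Pold2, Rfc5, Rrm1 and Tk1. The share of all genes lower in all 3 was not counted. Each of these fits leaves out KO 2 or gives it a low weight, so their overlap is not independent support. Ccne1 and Gins2 had no value on KO 3, so without KO 2 they rested on KO 1 and KO 4 alone. Their differences, -0.72 and -0.62, were therefore the same with KO 3 kept or left out. The dimmer probe of Ccne1 read 0.10 with all arrays. The labels give no reason to leave out either array. In the scanner values KO 3 stood apart, with a median Cy5 signal of 636 and 7665 flagged spots, where KO 2 had 137 and 181.

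In group means the common reference was read nearly alike for most of these genes, but KO 3 read lower for many of them. Cy3 carried the same RNA on every array. With Cy3 alone, quantile normalised, the members had a median KO minus WT difference of -0.05, against -0.06 for all genes. Limma's test passed 0 of 47 members and 0 of all 23343 genes in Cy3, so the lack of calls does not measure likeness. Mcm5, Pold1 and E2f1 had Cy3 differences of -0.06, 0.04 and 0.02. Mcm2 had a Cy3 difference of -0.21, Pola1 of -0.40 and Gmnn of -0.35. KO 3 was the lowest array in Cy3 for these 3 genes and for many other members, among them Cdc6, Pole2 and E2f1. In E2f1 the log2 Cy3 signal was 8.90 on KO 3, against 9.11 to 9.31 on the other arrays, which its group difference of 0.02 does not show. For Mcm5 and Pold1 KO 3 was not the lowest array. On the self-hybridised WT 3 array, where a ratio of 0 marks equal reading of both dyes, members ran from -0.68 (Fen1) to 0.71 (Pold2) around a median of -0.08.

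**Figure D5:**
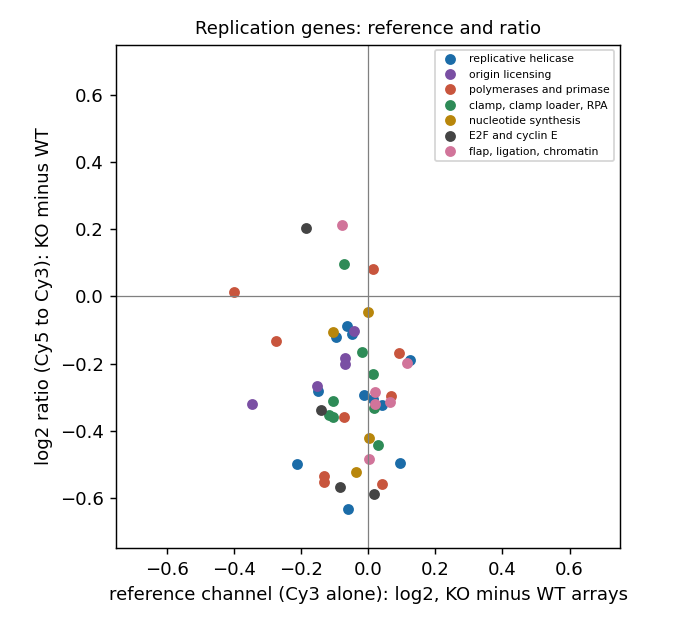
For each of the 47 members, the KO minus WT difference of the reference channel (Cy3 alone, horizontal axis) against that of the log2 ratio (vertical axis), both in log2 units. The reference differences centre on -0.05 while the ratio differences centre on -0.30, with Pola1 at the far left (-0.40).

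Most other genes of replication also read lower in KO, with a smaller median and none past the test. Of 61 listed genes outside the 48, 57 were tested and 47 were below 0, with a median of -0.18. None passed the test in either direction (lower, 0.00857% of all genes). At an unadjusted p under 0.05 in limma 18 were lower and 2 higher, against 13.6% and 10.4% of all genes. Of 52 with complete values 12 separated lower (23.1%, against 7.64% of all genes). Dnmt1, the maintenance methyltransferase that Uhrf1 recruits, had log2 ratios of -0.0017, -0.04, -0.37 and -0.41 on KO 1 to KO 4, against 0.34, 0.64, 0.35 and 0.40 on WT 1 to WT 4 (difference -0.64 ± 0.12 (SE); limma adjusted p = 0.103). Dbf4 and Cdc7, the kinase that fires origins, had -0.39 ± 0.10 (SE) and -0.37 ± 0.12 (SE), the second over 3 KO arrays. Ccna2, cyclin A2, had -0.35 ± 0.13 (SE). Cdk2, the kinase of cyclins E and A, had -0.21 ± 0.10 (SE), and Orc2, an origin subunit present through the cycle, 0.01 ± 0.10 (SE). The 2 genes higher at an unadjusted p under 0.05 are named after their values were seen. Ung, a uracil-DNA glycosylase, had log2 ratios of 1.82, 0.46, 1.61 and 2.53 on KO 1 to KO 4, against 0.55, 0.51, 0.55 and 0.58 on WT 1 to WT 4, a difference of 1.06 ± 0.35 (SE) (limma adjusted p = 0.132), the largest in size of the 57. KO 1, KO 3 and KO 4 lay above all WT arrays and KO 2 below them. Orc4, of the origin recognition complex, had 0.28 ± 0.11 (SE) (limma adjusted p = 0.18), with overlapping arrays.

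All 12 ureteric bud markers checked, among them Ret, Wnt11, Hoxb7 and Aqp2, were tested and 9 read below 0, with a median of -0.30. Their summed Cy5 signal after quantile normalisation was 52889 to 60591 on the KO arrays and 56879 to 68690 on the WT arrays. Markers of other kidney and blood cells were present too. Of 7 nephron progenitor genes 6 were below 0 (median -0.69; summed signal 23983 to 36297 on the KO arrays and 25957 to 51252 on the WT arrays), as were 9 of 9 stroma genes (median -0.37; 12442 to 41762 on the KO arrays and 16077 to 41884 on the WT arrays). Of 11 macrophage and neutrophil genes 10 were below 0 (median -0.39; 17139 to 84996 on the KO arrays and 18605 to 27324 on the WT arrays). Erythroid markers had 3 of 5 below 0 (median -0.06; 46720 to 80031 on the KO arrays and 11849 to 121320 on the WT arrays), endothelial markers 1 of 7 (median 0.18; 13174 to 16924 on the KO arrays and 10000 to 26200 on the WT arrays) and proximal tubule and podocyte markers 6 of 8 (median -0.18; 9890 to 51322 on the KO arrays and 17666 to 43848 on the WT arrays). The ranges of KO and WT overlapped for every list, no listed marker passed the test, and every marker with a probe was above background on at least 1 array. Of 9 macrophage and neutrophil genes with complete values, 4 separated lower in KO (44.4%, against 7.64% of all genes) and 0 higher (against 3.85%). Lower separation was seen for 2 of 11 ureteric bud markers, 1 of 7 nephron progenitor genes and 0 genes of the other lists. Among the markers not tested were Cd68, Ahsp, Hbb-b1 and Tbx18. Over the array medians of these lists KO and WT overlapped too; the part of these cells in the replication gene values was not tested.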

How the data were processed

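Total RNA of 8 sorted samples (4 KO, 4 WT; 0.5 µg each) was labelled in Cy5 and hybridised with Cy3-labelled RNA of WT replicate 3, per the labels. Deposited scanner output gives the intensity of each spot in both dyes, and the submitters' processing notes name Agilent Feature Extraction 10.7.3.1. The same output gives a log10 ratio of Cy5 to Cy3, background-subtracted and dye-normalised by the authors' software per the file headers, and the deposited series table holds the same log10 ratios. Its columns followed the scanner ratios with a largest difference of 0.00496, and their medians were 0, or 0.0152 for KO 3. Samples were called biological replicates by the submitters; separate animals are not stated, so p-values reflect only the spread among these samples, and the number of arrays limits the precision.

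Median signals of 62976 spots per array were corrected with normexp (offset 50) and loess-normalised within arrays in limma 3.58.1 (R 4.3.3; figures in matplotlib 3.10.9). Mean signals are not among the deposited columns. Flagged spots were left out, spots of a probe averaged, and probes kept if well above background on at least 4 arrays with values on at least 3 per group. Systematic names were matched to RefSeq (GRCm38.p6; 21717 of 37850 names), and the brightest tested probe stood for a gene, giving 23343, of which 15113 had a symbol. KO and WT were compared in a 2-sided limma fit (lmFit, eBayes), and p-values were adjusted over all 23343 by Benjamini-Hochberg, with a threshold of 0.05. The fit was tested on simulated data. The array annotation is for mm9, so only RefSeq coordinates are printed, for promoters. Members, lists and role groups were chosen with earlier results of these data known. All members could be named, as could 8 other replication genes fixed by name and Dot1l; some of the 8 are not reported here. Genes whose values per array are given are those without overlap, those whose probes differ in sign and the 2 brightest of each role, with some further members chosen after their values were seen; the promoters printed were selected after values were seen. Same-numbered KO and WT arrays had correlations of their deviations from -0.24 to 0.11. These show no pairing by number, but 4 correlations cannot exclude one, and the main fit was unpaired.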

Additional observations from a re-analysis of the deposited data

Results flagged for a closer look

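A gap test within the 4 arrays of a group was made for 91 sets of member values, and 7 had 1 array far from the others; chance alone is known to give such a gap in about 1 of 20 sets. In 4 of the 7 the array was WT 2, above the other WT arrays. For Mcm2 WT 2 read 0.58 against 0.31 to 0.34 on the others, and the gap took 0.890 of the range. Mcm7 had 0.49 against 0.16 to 0.17 (0.950 of the range), Prim1 -0.11 against -0.59 to -0.52 (0.855) and Uhrf1 -0.05 against -0.44 to -0.42 (0.927). On KO 2 Orc1 read 0.04, with the other KO arrays at -0.33 to -0.27 (0.849). On KO 4 Chaf1b read -0.84, with the others at -0.47 to -0.42 (0.871). On WT 3 Rfc3 read 0.10, with the others at -0.02 to -0.00378 (0.835).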

How the results depend on the processing

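Under 24 alternatives the median difference of the members stayed below 0, between -0.70 (median centring, where the median of all genes was -0.30) and -0.18 (without KO 3 and WT 2). Trend and robust settings, the replicate block and the filter on all 8 arrays kept the same member ratios, and the median of the members stayed at -0.30. With Cy5 alone it was -0.44, where the median of all genes was -0.18. Members below 0 numbered 39 to 47 (the 47 counted over 54 probes). Members lower without overlap numbered 15 to 29. Those settings and array weights kept the ratios of each array, so this count stayed at the 20 of the main fit. The 29 came with median centring, where 25.0% of all genes were lower without overlap and 77.4% below 0. The 15 came with normexp offset 0, the scanner ratio and the series table, where the share of all genes was 7.37%, 7.95% and 7.93%. Without KO 2 they numbered 22 (19.3% of all genes), and without KO 2 and KO 3 24 (23.6%). With each array left out in turn the median ranged from -0.36 to -0.19. The count of genes called over the whole array moved most. It was 1 with normexp offset 0, without background subtraction and with the mean over probes, 0 with median centring and with Cy5 alone, 5 with scaling between arrays, 4 without a filter, 16 with trend and robust settings and 4073 with array weights. It was 1 to 4947 with 1 array left out, the 4947 without KO 2 and 8 without KO 3, 5510 without KO 2 and KO 3, and 0 without KO 3 and WT 2. Members called numbered 14 with array weights, 13 without KO 2 and KO 3, and 0 to 15 with 1 array left out, the 15 without KO 2; they were 0 in the other alternatives, among them every probe tested separately. With the replicate block 0 genes and 0 members were called; the numbers share no stated pairing. Of single members, with no call in the fit with all arrays, some changed sign. Pola1 was -0.58 with Cy5 alone, -0.31 with median centring, and -0.0135 and -0.0130 with the scanner ratio and series table. Pcna was -0.0256 with Cy5 alone and -0.47 with median centring, where Pold3 was -0.32 and E2f3 -0.10; E2f3 was -0.18 as the mean over probes. Rrm2 was 0.00532 with array weights, 0.0301 with scaling, 0.0545 without KO 2 and KO 3 and 0.00263 without KO 3 and WT 2. Orc6 was 0.00442, 0.15 and 0.0109 with array weights and without those pairs, and Pole 0.00634 without KO 2 and KO 3. With 1 array left out Pola1 ranged from -0.10 to 0.16, Rrm2 from -0.14 to 0.0391 and Mcm6 from -0.17 to 0.0194. Causes were not tested. Dim probes such as those of Cdc6, Orc1 and Tyms are limited by signal over background.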
